A study of Mus musculus with 23 samples.

Results

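The 35 genes described here make, regulate or remove cholesterol and fatty acids in the mouse brain. They were chosen as a named list and matched by gene identifier, and all 35 were among the 18848 genes of the deposited table and among the 17256 with a mean of at least 10 normalised reads, the set on which every test was run. The list has 19 genes of sterol synthesis, 4 of regulation and transfer, 9 of fatty acid synthesis and 3 of sterol removal. RNA came from the brain, with no region named, of C57BL/6J mice, all male and at postnatal day 17. The mice were wild-type (WT) or heterozygous (HT) for Grin2b, and the series title names the mutation as C456Y. The product of Grin2b, GluN2B, is a subunit of NMDA receptors, which are channels opened by glutamate. Vehicle or DCS was given to mice of either genotype. DCS commonly stands for D-cycloserine, which acts as a partial agonist where glycine binds the receptor, but the labels spell out neither the name nor a dose, route or time. The WT mice gave 6 libraries under vehicle and 5 under DCS and the HT mice gave 6 under each, all made from polyadenylated RNA with a kit that keeps the strand. Nothing says that each came from its own mouse, so the p-values take only the spread between libraries, possibly technical, as error.

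The brain makes its own cholesterol, since lipoproteins of the blood barely cross the blood-brain barrier. Acetyl-CoA is turned into mevalonate, then into squalene and lanosterol, and the last enzymes shape lanosterol into cholesterol. When sterol is scarce, the transcription factor SREBP2 (gene Srebf2) switches on this whole series of genes, while SREBP1 (Srebf1) acts more on fatty acid synthesis and INSIG1 holds both factors back. At this age oligodendrocytes are wrapping axons in myelin, a membrane rich in cholesterol and long fatty acids, and neurons and astrocytes make sterol as well.

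The values are normalised read counts, scaled between libraries by the authors, with totals of 32.29 M to 33.55 M. From the steps between low values, the unscaled depth was estimated at about 25.57 M reads (HT DCS replicate 5) to 37.52 M (WT vehicle replicate 4). Grin2b was read at 17910.4 ± 1189 in WT vehicle, 18770.4 ± 2543 in WT DCS, 18272 ± 1885 in HT vehicle and 18948 ± 1882 in HT DCS. Because both alleles are summed in these values, they are no check of the genotype labels. All markers of 6 lists of brain cell types were read, the lowest mean being 225 (Tmem119, a microglial gene). Replicate numbers are those of the sample titles. Libraries numbered 4 to 6 had lower means than those numbered 1 to 3 in myelin markers and in several lipid genes, with overlapping values in all of these but Scd2, as described at the end, and the labels do not say what the numbers stand for.

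Promoters are shown for the genes that varied most closely together from library to library (pairs with a Pearson r of at least 0.75, given below). The windows span 300 bases, from 250 before to 50 after the annotated start, from RefSeq on GRCm38.p6, written 5′ to 3′ on the strand of the gene. Capitals mark matches, on either strand, to 3 motifs: CCAAT, the box bound by NF-Y, a partner of SREBP (ATTGG on the other strand), TCACNCCAC, the core of the sterol regulatory element that SREBP binds, and CACGTG, the E-box.
Hmgcs1, chr13:119690101-119690400, plus strand: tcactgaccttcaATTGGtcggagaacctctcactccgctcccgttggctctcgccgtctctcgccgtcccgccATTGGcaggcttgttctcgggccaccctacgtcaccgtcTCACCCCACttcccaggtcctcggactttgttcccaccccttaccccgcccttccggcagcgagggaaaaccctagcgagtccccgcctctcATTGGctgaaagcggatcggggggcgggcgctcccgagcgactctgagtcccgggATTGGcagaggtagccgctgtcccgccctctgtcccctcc
Mvd, chr8:122443373-122443672, minus strand: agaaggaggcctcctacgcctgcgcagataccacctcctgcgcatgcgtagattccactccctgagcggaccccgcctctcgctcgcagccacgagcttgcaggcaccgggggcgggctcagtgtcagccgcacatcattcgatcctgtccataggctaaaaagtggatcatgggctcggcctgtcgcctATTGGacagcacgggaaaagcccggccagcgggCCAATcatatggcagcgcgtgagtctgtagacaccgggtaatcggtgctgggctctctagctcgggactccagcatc
Cyp51, chr5:4104648-4104947, minus strand: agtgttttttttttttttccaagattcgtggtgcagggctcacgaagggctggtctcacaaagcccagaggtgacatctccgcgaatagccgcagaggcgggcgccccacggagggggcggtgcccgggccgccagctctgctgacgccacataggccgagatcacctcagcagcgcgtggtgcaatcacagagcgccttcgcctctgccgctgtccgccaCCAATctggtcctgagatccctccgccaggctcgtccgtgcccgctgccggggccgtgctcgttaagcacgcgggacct
Msmo1, chr8:64733529-64733828, minus strand: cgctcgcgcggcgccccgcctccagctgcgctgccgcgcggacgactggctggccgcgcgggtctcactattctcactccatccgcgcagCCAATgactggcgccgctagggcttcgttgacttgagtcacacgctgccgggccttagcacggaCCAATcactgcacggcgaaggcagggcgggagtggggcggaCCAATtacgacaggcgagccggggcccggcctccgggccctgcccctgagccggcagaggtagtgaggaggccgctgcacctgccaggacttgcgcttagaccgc
Idi1, chr13:8885356-8885655, plus strand: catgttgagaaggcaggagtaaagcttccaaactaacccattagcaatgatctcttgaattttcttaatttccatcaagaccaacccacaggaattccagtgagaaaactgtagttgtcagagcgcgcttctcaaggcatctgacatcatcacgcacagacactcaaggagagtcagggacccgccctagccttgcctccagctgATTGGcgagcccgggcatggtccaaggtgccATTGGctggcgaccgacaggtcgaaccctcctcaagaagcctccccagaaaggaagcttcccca
Acss2, chr2:155517793-155518092, plus strand: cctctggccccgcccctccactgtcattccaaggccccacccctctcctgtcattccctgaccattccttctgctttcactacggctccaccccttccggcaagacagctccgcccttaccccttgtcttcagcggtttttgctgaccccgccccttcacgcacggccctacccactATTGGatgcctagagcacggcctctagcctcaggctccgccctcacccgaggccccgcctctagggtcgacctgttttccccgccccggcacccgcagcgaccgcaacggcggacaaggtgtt
The Hmgcs1 window held 4 CCAAT boxes and the 1 match to TCACNCCAC among the genes described, which began 137 bases before the start. Msmo1 had 3 CCAAT boxes, Mvd and Idi1 2 each, and Cyp51 and Acss2 1 each. No CACGTG lay in these 6 windows. The other genes of those pairs, Sqle and Scd2, had no entry in the RefSeq table.

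Of the 35 genes, 27 matched the RefSeq table, with 32 promoters in all because Dhcr7 and Srebf1 have 3 each and Pmvk has 2. Fdps, Fdft1, Sqle, Stard4, Scd1, Scd2, Fads1 and Abcg1 had no entry. CCAAT was found in 23 of the 32 promoters (71.9%), covering 22 of the 27 genes, and in 37.4% of all 32851 promoters of the same length. TCACNCCAC was found in 1 of 32 and in 1.24% of all promoters. CACGTG was found in 5 of 32 (15.6%; Abca1, Dhcr7, Hsd17b7, Insig1 and Sc5d) and in 7.15% of all. No match of 1 motif overlapped a match of another in these 32 promoters. The median GC content was 63.3% in the 32 promoters and 52.7% in all, and how far base composition sets the shares was not tested. A match describes the letters of the window and is no evidence of binding.

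**Figure D1:**
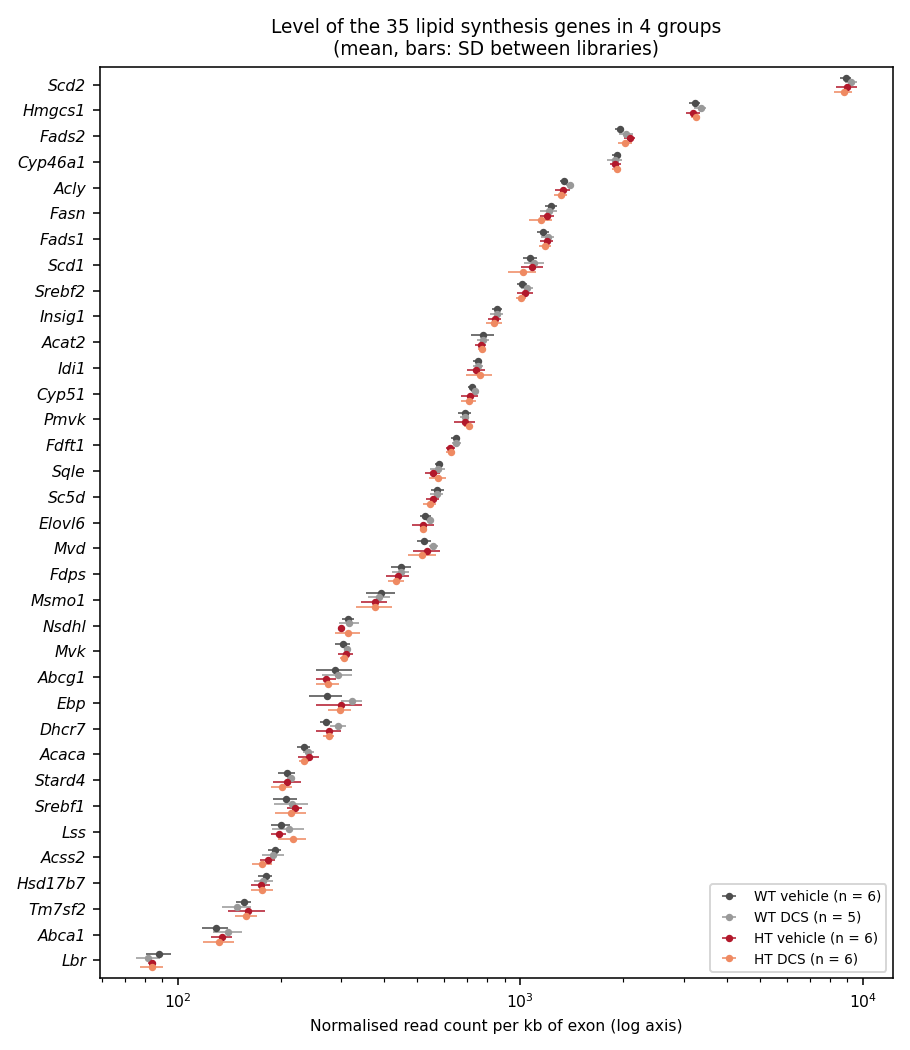
Level of each of the 35 genes, as normalised reads per kb of exon on a log axis, in the 4 groups (point: mean, bar: SD between libraries). Scd2 stands at the top at 8899 in WT vehicle and Lbr at the bottom at 88.1, and the 4 groups lie close together for each gene.

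Levels differed widely between genes and little between groups. Divided by the length of their exons (all exons of a gene merged, GENCODE M21), the genes spanned from 8899 ± 323 normalised reads per kb for Scd2 to 88.1 ± 7.34 for Lbr in WT vehicle (SD, n = 6). Scd2, the main stearoyl-CoA desaturase of brain, stood above Hmgcs1 (3227 ± 115 per kb), which makes the precursor of mevalonate. Fads2, the delta-6 desaturase of polyunsaturated fatty acids (1950.3 ± 58.8 per kb), and Cyp46a1, which turns cholesterol into 24-hydroxycholesterol (1911 ± 59.0 per kb), came next. Below them followed Acly (1339), Fasn (1231), Fads1 (1165), Scd1 (1068), Srebf2 (1013) and Insig1 (854 per kb). The ranges over the 6 WT vehicle libraries did not overlap between Scd2 and Hmgcs1, between Hmgcs1 and Fads2, between Cyp46a1 and Acly, or between Srebf2 and Insig1. Fads2 and Cyp46a1 overlapped, as did 23 of the 34 pairs of neighbours in the order. At the low end stood Acss2 (192), Hsd17b7 (180.3), Tm7sf2 (156), Abca1 (129) and Lbr (88.1 per kb). The merged length takes in every annotated exon (10.163 kb for Acss2, 5.104 kb for Hsd17b7 and 4.403 kb for Tm7sf2). Where the transcripts present are shorter than that, the value per kb is too low. Which transcripts were present was not tested, so places in the order depend on the length used. The order was nearly the same in the 4 groups: 17 genes held 1 rank throughout and no gene moved by more than 3 ranks. Scd1 and Scd2 are closely related paralogs, and reads they share could be split between them by the authors' counting.

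**Figure D2:**
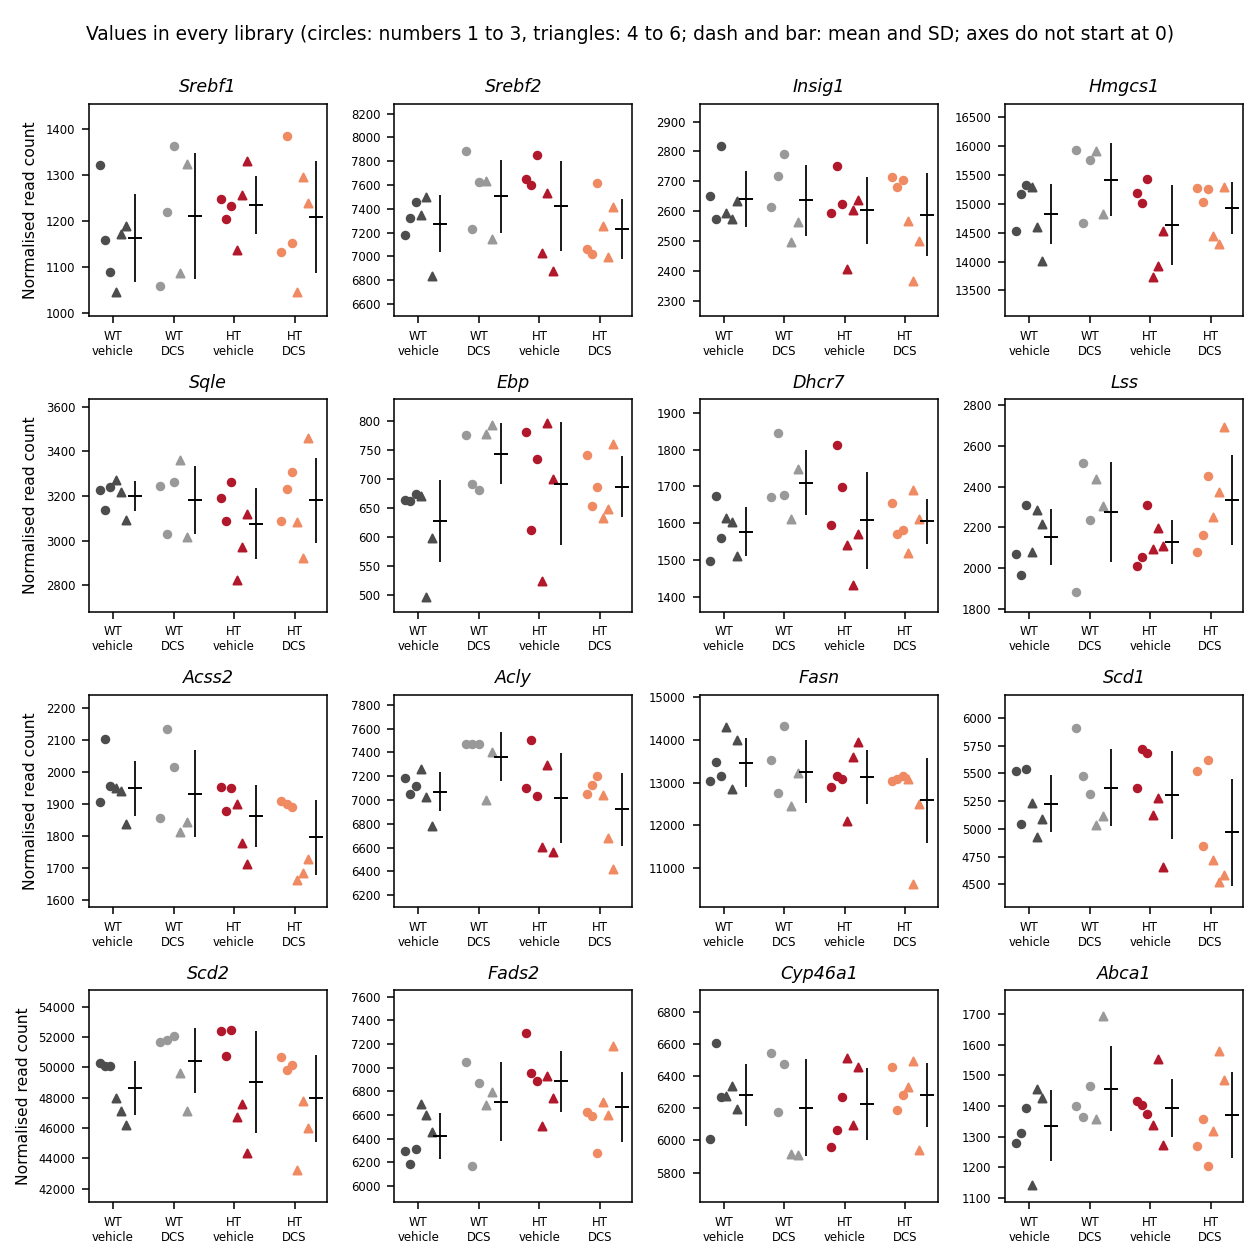
Normalised read counts of 16 of the genes in all 23 libraries, by group (circles: replicate numbers 1 to 3, triangles: 4 to 6, dash and bar: mean and SD; axes do not start at 0). The groups overlap in each panel except for Ebp, where the 5 WT DCS libraries (680.8 to 794) lie above the 6 WT vehicle libraries (496 to 675).

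Among the regulators, the 4 groups overlapped for each gene. Means below are given ± SD over the libraries of a group. Srebf2 had 7275 ± 241 normalised reads in WT vehicle (from 6839 to 7498 with a median of 7338) and 7423 ± 381 in HT vehicle (from 6879 to 7852 with a median of 7562). Under DCS, Srebf2 stood at 7503 ± 309 in WT (7885, 7227, 7623, 7635 and 7145 in replicates 1 to 5) and at 7228 ± 250.4 in HT (from 6994 to 7619.8 with a median of 7162). The 4 ranges overlapped, with the highest library in WT DCS and the lowest in WT vehicle. Srebf1 had 1163 ± 94.8 normalised reads in WT vehicle (from 1046 to 1322 with a median of 1166) and 1235 ± 63.7 in HT vehicle (from 1137 to 1329.7 with a median of 1241). Under DCS, Srebf1 stood at 1210.3 ± 137 in WT (1058, 1220.4, 1362, 1086 and 1325 in replicates 1 to 5) and at 1209 ± 123 in HT (from 1045 to 1385 with a median of 1196). Srebf1 spread from 1045.3 to 1385 inside HT DCS alone, wider than the gap between any of the group means. Insig1 had 2641 ± 92.6 normalised reads in WT vehicle (from 2572 to 2818 with a median of 2615) and 2603 ± 112 in HT vehicle (from 2406 to 2751 with a median of 2614). Under DCS, Insig1 stood at 2636 ± 119 in WT (2615, 2718, 2792, 2496 and 2562 in replicates 1 to 5) and at 2588 ± 138 in HT (from 2367 to 2715 with a median of 2623). INSIG1 retains the SREBP complex in the endoplasmic reticulum, and the 4 means of its mRNA differed by less than their SDs. Stard4, a cytosolic sterol carrier, had means of 1163, 1194, 1167 and 1123 in WT vehicle, in WT DCS, in HT vehicle and in HT DCS.

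The early enzymes of sterol synthesis run from acetyl-CoA to squalene. Hmgcs1 had 14824 ± 526 normalised reads in WT vehicle (from 14014 to 15327 with a median of 14892) and 14636 ± 694 in HT vehicle (from 13740.3 to 15435 with a median of 14765). Under DCS, Hmgcs1 stood at 15419 ± 626 in WT (15931, 14663, 15765, 15921 and 14815 in replicates 1 to 5) and at 14931 ± 445 in HT (from 14304 to 15290.0 with a median of 15139). The WT DCS libraries of Hmgcs1, the synthase of HMG-CoA, reached higher than any WT vehicle library in 3 of 5 cases, and the others lay inside the WT vehicle range. Fdft1 had 2737 ± 78.3 normalised reads in WT vehicle (from 2646 to 2844 with a median of 2714) and 2642 ± 82.9 in HT vehicle (from 2538 to 2728 with a median of 2667). Under DCS, Fdft1 stood at 2749 ± 79.1 in WT (2816, 2845, 2697, 2729 and 2658 in replicates 1 to 5) and at 2646 ± 83.1 in HT (from 2538 to 2762 with a median of 2658). FDFT1 is squalene synthase, and each of the 6 HT vehicle values was under the mean of WT vehicle, although the ranges overlapped. The steps between were read at WT vehicle means of 1979 for Acat2 (acetoacetyl-CoA thiolase), 810.3 for Mvk, 1180.2 for Pmvk and 974 for Mvd (the kinases and the decarboxylase of the mevalonate steps), 2634 for Idi1 and 1892 for Fdps (isopentenyl isomerase and farnesyl diphosphate synthase). In HT vehicle these 6 means were 1949, 828, 1183, 991, 2602 and 1846 in the same order.

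Squalene epoxidase (Sqle) and lanosterol synthase (Lss) form the sterol rings. Sqle had 3199 ± 67.6 normalised reads in WT vehicle (from 3094 to 3273 with a median of 3222) and 3076 ± 158 in HT vehicle (from 2823 to 3264 with a median of 3104). Under DCS, Sqle stood at 3183 ± 153 in WT (3246, 3029, 3263, 3362 and 3017 in replicates 1 to 5) and at 3182 ± 191 in HT (from 2923 to 3459.8 with a median of 3158). Sqle was tightest in WT vehicle, and the other 3 groups spread more widely around the same level. Lss had 2154 ± 136 normalised reads in WT vehicle (from 1966 to 2308 with a median of 2147) and 2129 ± 107 in HT vehicle (from 2012 to 2309 with a median of 2102). Under DCS, Lss stood at 2275 ± 245 in WT (1883, 2517, 2235, 2436 and 2304 in replicates 1 to 5) and at 2335 ± 221 in HT (from 2078 to 2691 with a median of 2311). The highest Lss value of all was HT DCS replicate 6, at 2691, and the lowest was WT DCS replicate 1, at 1883. After lanosterol, EBP moves a double bond of the sterol, SC5D adds another and DHCR7 carries out the last reduction. Ebp had 628 ± 70.6 normalised reads in WT vehicle (from 496 to 675 with a median of 663) and 692 ± 106 in HT vehicle (from 523 to 798 with a median of 718). Under DCS, Ebp stood at 744 ± 53.2 in WT (776, 692, 681, 778 and 794 in replicates 1 to 5) and at 687 ± 52.7 in HT (from 633 to 760.5 with a median of 670.1). WT vehicle replicate 5, at 496, was the lowest Ebp value, and all 5 WT DCS libraries lay above all 6 WT vehicle libraries. Dhcr7 had 1577 ± 66.6 normalised reads in WT vehicle (from 1497 to 1673 with a median of 1582) and 1608 ± 132 in HT vehicle (from 1432 to 1812 with a median of 1583). Under DCS, Dhcr7 stood at 1710.1 ± 88.6 in WT (1671, 1844, 1676, 1613 and 1748 in replicates 1 to 5) and at 1605 ± 61.7 in HT (from 1521 to 1691 with a median of 1596). Each WT DCS library of Dhcr7 lay above the WT vehicle mean, and the ranges overlapped. Sc5d had 2787 ± 121 normalised reads in WT vehicle (from 2621 to 2975 with a median of 2775) and 2702 ± 114 in HT vehicle (from 2527 to 2806 with a median of 2728). Under DCS, Sc5d stood at 2773 ± 119 in WT (2803, 2969, 2698, 2713 and 2682 in replicates 1 to 5) and at 2646 ± 117 in HT (from 2569 to 2880.2 with a median of 2601). HT DCS replicate 3, at 2880.2, stood above the other 5 HT DCS libraries of Sc5d.

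The remaining sterol enzymes remove methyl groups and reduce the ring. Cyp51, the lanosterol demethylase, had 3184 ± 88.3 in WT vehicle, 3244 ± 75.1 in WT DCS, 3139 ± 173 in HT vehicle and 3115 ± 151 in HT DCS. Msmo1, the methylsterol monooxygenase, had 2414 ± 232, 2381 ± 172, 2306 ± 207 and 2311 ± 282 in that order of groups. Nsdhl, which acts after Msmo1, had 897 ± 37.3, 904 ± 62.5, 853 ± 13.5 and 893 ± 75.4. The spread differed between these genes: within a group the SD was 1.58% of the mean for Nsdhl in HT vehicle, the lowest of all 35 genes, and 15.3% for Ebp in HT vehicle, the highest. Hsd17b7 (WT vehicle 920.1, HT vehicle 894), a ketosterol reductase, and the sterol reductases Tm7sf2 (686 and 703) and Lbr (419.5 and 400.5) were among the lower genes of the set per kb.

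Fatty acid synthesis begins with cytosolic acetyl-CoA, made from citrate by ACLY and from acetate by ACSS2. Acly had 7069.9 ± 165 normalised reads in WT vehicle (from 6785 to 7263 with a median of 7083) and 7016 ± 374 in HT vehicle (from 6563 to 7507 with a median of 7068). Under DCS, Acly stood at 7363 ± 206 in WT (7471, 7471, 7469, 6999 and 7404 in replicates 1 to 5) and at 6919.9 ± 304 in HT (from 6421 to 7200.1 with a median of 7047). Of the WT DCS libraries of Acly, 4 lay close together and replicate 4 stood below them. Acss2 had 1948 ± 86.6 normalised reads in WT vehicle (from 1838 to 2101 with a median of 1943) and 1861 ± 96.7 in HT vehicle (from 1711 to 1950.2 with a median of 1888). Under DCS, Acss2 stood at 1931 ± 137 in WT (1856, 2133, 2013, 1811 and 1844 in replicates 1 to 5) and at 1795 ± 116 in HT (from 1659.8 to 1908 with a median of 1809). The lowest Acss2 values of the 23 libraries were those of HT DCS replicates 4 and 5, at 1659.8 and 1683. FASN builds palmitate from these units. Fasn had 13471 ± 575 normalised reads in WT vehicle (from 12844 to 14299.9 with a median of 13319) and 13135 ± 634 in HT vehicle (from 12109 to 13954 with a median of 13126). Under DCS, Fasn stood at 13260.3 ± 728 in WT (13524, 12769, 14337, 12454 and 13218 in replicates 1 to 5) and at 12582 ± 989 in HT (from 10621 to 13162 with a median of 13054). HT DCS replicate 5 of Fasn, at 10621, was the lowest of the 23 libraries and stood apart from the other HT DCS libraries (12509.7 to 13162). Acaca, whose carboxylase supplies malonyl-CoA, had means of 3979 in WT vehicle, 4105 in WT DCS, 4125 in HT vehicle and 3987 in HT DCS. Elovl6, which lengthens palmitate, had 3396, 3501, 3352 and 3351.

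The desaturases place double bonds in the finished chains. Scd2 had 48625 ± 1765 normalised reads in WT vehicle (from 46181 to 50265 with a median of 49024) and 49034 ± 3334 in HT vehicle (from 44321 to 52459 with a median of 49160.5). Under DCS, Scd2 stood at 50447 ± 2114 in WT (51646, 51830.1, 52056, 49606 and 47096 in replicates 1 to 5) and at 47959 ± 2886 in HT (from 43255 to 50713 with a median of 48813). The high and low Scd2 libraries followed their replicate numbers in each group: numbers 1 to 3 were above numbers 4 to 6 throughout. Scd1 had 5225 ± 258 normalised reads in WT vehicle (from 4923 to 5543 with a median of 5159) and 5305 ± 394 in HT vehicle (from 4653 to 5721 with a median of 5324). Under DCS, Scd1 stood at 5373 ± 349 in WT (5913, 5481, 5318, 5034 and 5118 in replicates 1 to 5) and at 4969.8 ± 482 in HT (from 4521 to 5621 with a median of 4783). Scd1 was lowest in HT DCS replicates 5 and 6 and highest in WT DCS replicate 1. Fads2 had 6426 ± 194 normalised reads in WT vehicle (from 6189 to 6696 with a median of 6389) and 6885 ± 259 in HT vehicle (from 6506 to 7291 with a median of 6909.8). Under DCS, Fads2 stood at 6715 ± 331 in WT (7046, 6170.1, 6871, 6689 and 6798 in replicates 1 to 5) and at 6666 ± 294 in HT (from 6277 to 7183 with a median of 6614). All 6 HT vehicle libraries of Fads2 lay above the WT vehicle mean, with overlapping ranges. Fads1, the delta-5 desaturase, had 5605, 5776, 5737 and 5688 in WT vehicle, in WT DCS, in HT vehicle and in HT DCS.

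Sterol leaves brain cells after hydroxylation by CYP46A1, a neuronal enzyme, or through the transporters ABCA1 and ABCG1. Cyp46a1 had 6283 ± 194 normalised reads in WT vehicle (from 6012 to 6604 with a median of 6275) and 6227 ± 223 in HT vehicle (from 5962 to 6510.1 with a median of 6186). Under DCS, Cyp46a1 stood at 6204 ± 301 in WT (6547, 6176, 6476, 5913 and 5909.9 in replicates 1 to 5) and at 6282 ± 201 in HT (from 5941 to 6496 with a median of 6305). The 4 means of Cyp46a1 differed by less than any of their SDs. Abca1 had 1335 ± 116 normalised reads in WT vehicle (from 1142 to 1454 with a median of 1354) and 1394 ± 94.4 in HT vehicle (from 1272 to 1555 with a median of 1389.7). Under DCS, Abca1 stood at 1457 ± 139.7 in WT (1402, 1364, 1466, 1357 and 1694 in replicates 1 to 5) and at 1369.7 ± 140.4 in HT (from 1204 to 1581 with a median of 1339). WT DCS replicate 5, at 1694, was the highest Abca1 library and WT vehicle replicate 4, at 1142, the lowest. Abcg1 had 2103 ± 255, 2139 ± 220.2, 1979 ± 136 and 1997 ± 153 in WT vehicle, in WT DCS, in HT vehicle and in HT DCS, and WT vehicle replicate 3, at 2586, stood above the other 5 WT vehicle libraries (1915 to 2159).

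**Figure D3:**
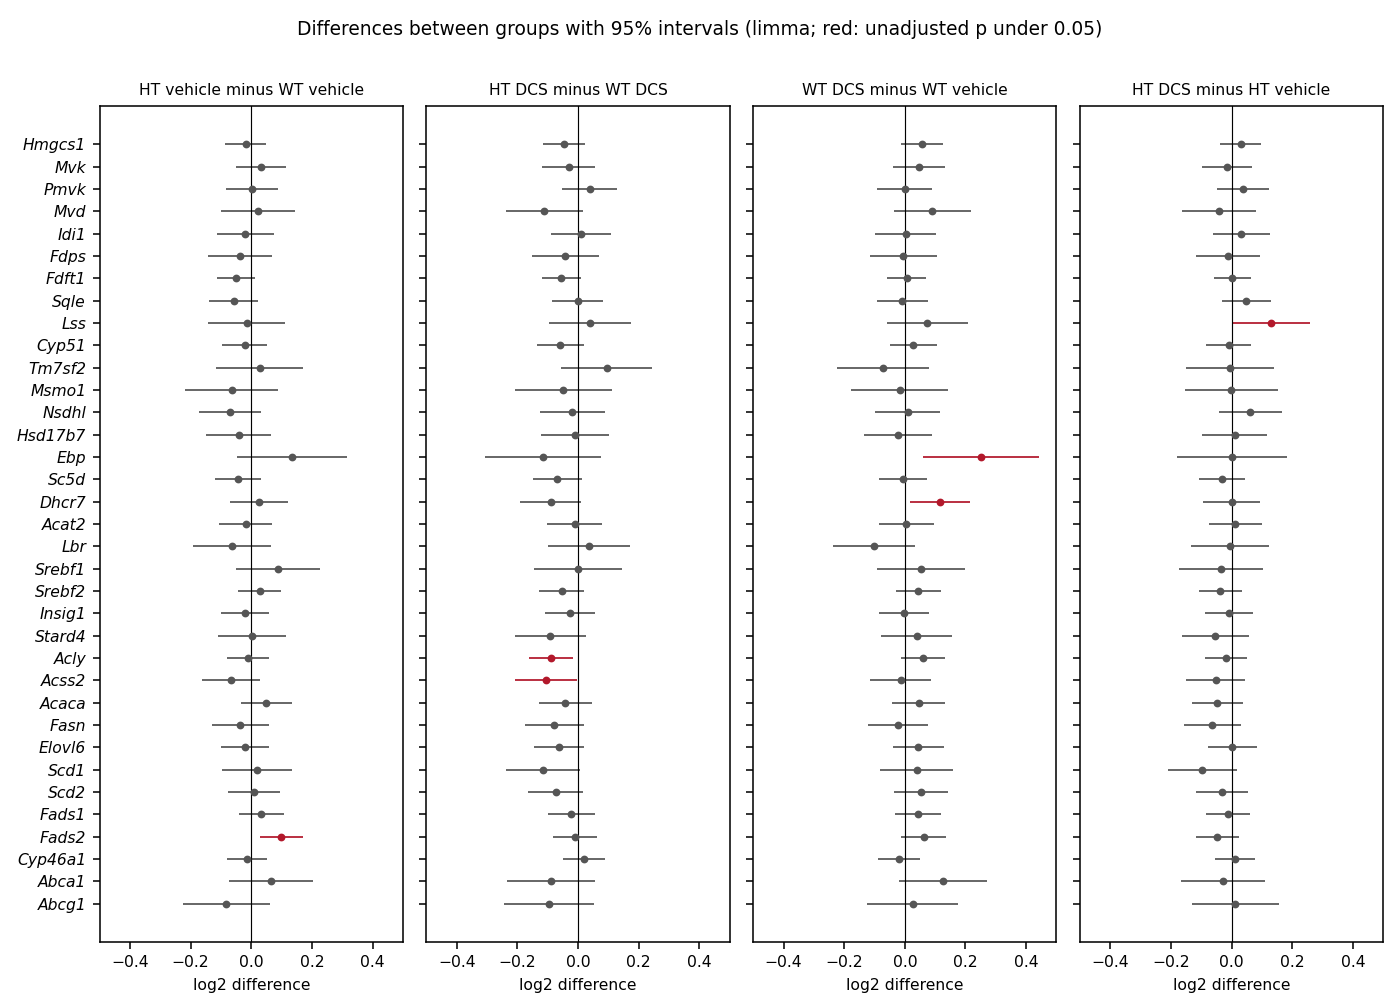
Log2 difference of each gene in the 4 comparisons of 2 groups, with its 95% interval from limma (red: unadjusted p under 0.05; none passed after adjustment over 17256 genes). The fitted differences lie between -0.12 and 0.25, and at least 33 of the 35 intervals in each comparison stay inside 1.2-fold.

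The comparison of HT vehicle with WT vehicle asked how the heterozygous brain differs without the drug. Fads2 was higher in HT vehicle by 0.10 ± 0.03 on the log2 scale (SE, 95% interval 0.03 to 0.17), with 6 of 6 libraries above the WT vehicle mean, and did not pass (limma, unadjusted p = 0.00735, adjusted p = 0.999). Ebp differed by 0.13 ± 0.09 and Fdft1 by -0.05 ± 0.03 (limma, adjusted p = 0.999 for each). Without WT vehicle replicate 5 the Ebp difference was 0.07, and without HT vehicle replicate 4 it was 0.21. None of the 35 genes passed an adjusted p of 0.05 (limma with Benjamini-Hochberg adjustment over 17256 genes; 0% of all genes passed). At an unadjusted p under 0.05 there was 1 of 35, Fads2, against 4.22% of all genes. The 35 differences had a median of -0.02 (-0.0003 without HT vehicle replicate 4 and -0.0049 without replicate 5), with 15 higher and 20 lower, where 49.7% of all genes were higher and 50.3% lower. By role, 6 of 19 sterol synthesis genes, 3 of 4 regulation and transfer genes, 5 of 9 fatty acid genes and 1 of 3 removal genes were higher. The fitted log2 differences ran from -0.08 to 0.13, and for 34 of 35 genes the 95% interval stayed within 1.2-fold. No gene of the 35 had groups that did not overlap (0.249% of all genes had). The 10 myelin markers had lower means in HT vehicle in 10 of 10 cases, with a median difference of -0.11. Their summed level ran from 394101 to 500188 in HT vehicle and from 458884 to 527427 in WT vehicle, none was at 0, and their part in the lipid values was not tested in this comparison. In bulk tissue fewer cells of a type and less RNA per cell cannot be told apart.

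The same genotypes were then compared under DCS. Here the fatty acid genes all lay on 1 side: 9 of 9 had a lower mean in HT DCS than in WT DCS, with a median difference of -0.07. The genes that feed cytosolic acetyl-CoA had the smallest p-values. Acly differed by -0.09 ± 0.04 (SE, limma, unadjusted p = 0.017, adjusted p = 0.635) and Acss2 by -0.11 ± 0.05 (limma, unadjusted p = 0.0413, adjusted p = 0.648), each with 6 of 6 HT DCS libraries under the WT DCS mean. Scd1 differed by -0.12 ± 0.06 (limma, unadjusted p = 0.0601, adjusted p = 0.676), with 4 of 6 libraries under that mean. None of these passed. Of the 35 genes 0 passed at an adjusted p of 0.05 (limma; 0% of all genes) and 2 had an unadjusted p under 0.05, Acly and Acss2, against 7.55% of all genes. In all 29 of 35 genes were lower, and 6 higher, with a median of -0.05 (-0.03 without HT DCS replicate 5), where 50.2% of all genes were lower and 49.8% higher. The lower ones were 14 of 19 in sterol synthesis, 4 of 4 in regulation and transfer, 9 of 9 in fatty acid synthesis and 2 of 3 in removal. The 35 genes vary together, as described below, so these counts are not of independent genes. Fold changes ran from 0.923 to 1.07, and 34 of 35 intervals stayed within 1.2-fold. No gene's groups failed to overlap (0.411% of all genes). Without HT DCS replicates 5 and 6, the libraries with the lowest estimated depth and the lowest myelin marker sum, Acly differed by -0.05, Acss2 by -0.07 and Scd1 by -0.06. Beside these values, 10 of 10 myelin markers were lower in HT DCS, with a median difference of -0.24. Their summed level ran from 326070 to 510560 in HT DCS and from 446366 to 528295 in WT DCS. In HT DCS this sum was 436427 to 510560 at replicate numbers 1 to 3 and 326070 to 396790 at numbers 4 to 6. In WT DCS it was 488641 to 528295 at numbers 1 to 3, and 446366 and 463536 at the later numbers. The relation of the markers to single genes is given below, and their part in this comparison was not tested.

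DCS was compared with vehicle in WT mice to ask what the drug alone does. Ebp was higher in WT DCS by 0.25 ± 0.09 (SE, 95% interval 0.06 to 0.44), with 5 of 5 libraries above all WT vehicle libraries, and did not pass (limma, unadjusted p = 0.0119, adjusted p = 1). Ebp was the 1 gene of 35 whose groups did not overlap, as for 0.33% of all genes. With each library left out in turn, the Ebp difference ran from 0.18 to 0.28. Dhcr7, which acts after Ebp in the pathway, was higher by 0.12 ± 0.05 (limma, unadjusted p = 0.0236, adjusted p = 1) and Abca1 by 0.13 ± 0.07 (limma, unadjusted p = 0.0874, adjusted p = 1), each with 5 of 5 libraries above the WT vehicle mean. Without WT DCS replicate 5, the highest library, the Abca1 difference was 0.07. Of the 35 genes 0 passed (limma; 0% of all genes) and 2 had an unadjusted p under 0.05, against 2.88% of all genes. Higher means were found in 24 of 35 genes, and lower ones in 11, with a median of 0.03 (0.0084 without WT DCS replicate 1), where 50.3% of all genes were higher and 49.7% lower. The higher ones were 12 of 19 sterol synthesis genes, 3 of 4 regulation and transfer genes, 7 of 9 fatty acid genes and 2 of 3 removal genes. Folds ran from 0.931 to 1.19, and 33 of 35 intervals stayed within 1.2-fold, with Ebp reaching 1.36 at its upper end. Myelin markers were higher in 5 of 10 and lower in 5 of 10.

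DCS was compared with vehicle in HT mice as well. Lss was higher in HT DCS than in HT vehicle by 0.13 ± 0.06 (SE), with 5 of 6 libraries above the HT vehicle mean, and did not pass (limma, unadjusted p = 0.0489, adjusted p = 0.973). Scd1 differed by -0.10 ± 0.06 and Fasn by -0.06 ± 0.05 (limma, adjusted p = 0.973 for each). Without HT DCS replicates 5 and 6 these 3 values were 0.07, -0.04 and -0.0035 for Lss, Scd1 and Fasn, and without replicate 5 alone Fasn differed by -0.02. Of the 35 genes 0 passed (limma; 0% of all genes), and Lss alone had an unadjusted p under 0.05, against 4.8% of all genes. The median difference was -0.01 (-0.03 without HT vehicle replicate 4, 0.0015 without HT vehicle replicate 3 and 0.0030 without HT DCS replicate 5), with 14 higher and 21 lower (49.3% and 50.7% of all genes), of which fatty acid genes gave 8 of 9 lower. All 35 intervals stayed within 1.2-fold, and no gene's groups failed to overlap (0.127% of all genes). Myelin markers were lower in 10 of 10, with a median difference of -0.14, and their part was not tested.

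The interaction asks whether the DCS difference itself differed between genotypes. Fads2 had an interaction of -0.11 ± 0.05 (SE, limma, unadjusted p = 0.0361, adjusted p = 0.984): under DCS its mean was higher in WT, by 0.06, and lower in HT, by -0.05. Ebp had -0.25 ± 0.13 and Dhcr7 -0.12 ± 0.07 (limma, adjusted p = 0.984 for each). No gene of the 35 passed (limma; 0% of all genes; 1 at an unadjusted p under 0.05 against 4.38% of all genes), so no DCS response was shown to differ between genotypes. The interaction was negative in 24 and positive in 11 of the 35 genes (50.7% and 49.3% of all genes). The 9 fatty acid genes were all negative, with a median of -0.08, as were the 4 regulation and transfer genes, while sterol synthesis genes were split 10 to 9. The interaction shares its libraries with the comparisons above and is no separate evidence. It is also the least precise: 28 of 35 intervals stayed within 1.2-fold and all 35 within 1.5-fold.

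Averaged over the treatments, 26 of 35 genes were lower in HT than in WT, with a median of -0.03 (50.5% of all genes were lower and 49.5% higher), or -0.02 without HT DCS replicate 5. Beside these values, 10 of 10 myelin markers were lower in HT, with a median difference of -0.17, and their part was not tested. Acss2 differed by -0.09 ± 0.03 (SE, limma, unadjusted p = 0.0178, adjusted p = 0.636), Fdft1 by -0.05 ± 0.02 and Sc5d by -0.06 ± 0.03 (limma, adjusted p = 0.646 and 0.685). Together with Acly these made 4 genes at an unadjusted p under 0.05, all lower, against 7.17% of all genes in either direction and 3.96% of all genes in the lower one, and 0 passed (limma; 0% of all genes). Averaged over the genotypes, the DCS difference had a median of 0.01, with 22 higher and 13 lower (49.2% and 50.8% of all genes), and myelin markers were lower in 10 of 10, with a median of -0.08. Lss stood at 0.10 ± 0.05 (SE, limma, unadjusted p = 0.0334, adjusted p = 1), Ebp at 0.13 ± 0.06 and Hmgcs1 at 0.04 ± 0.02 (limma, adjusted p = 1 for each). Again 0 passed (limma; 0% of all genes), with 1 at an unadjusted p under 0.05 against 3.16% of all genes.

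Other genes of the pathway, from a list of 58 on SREBP processing, sterol uptake and storage, oxysterols, isoprenoids and further fatty acid enzymes, likewise held none that passed. Of these 57 had a mean of at least 10 (Ch25h, at 7.64, did not) and 0 passed in each of the 7 contrasts (limma; 0% of all genes). At an unadjusted p under 0.05 there were 5 of 57 between HT vehicle and WT vehicle (4.22% of all genes), 4 between HT DCS and WT DCS (7.55%), 2 for DCS in WT (2.88%) and 1 for DCS in HT (4.8%). Groups did not overlap for 1 of the 57 in the first of these comparisons (0.249% of all genes), for 1 in the second (0.411%) and for 0 in each DCS comparison. Acsl1, an acyl-CoA synthetase, had 1912 ± 66.9 in HT vehicle and 2039 ± 72.5 in WT vehicle, with groups that did not overlap (-0.09 ± 0.04, limma, adjusted p = 0.999), and Elovl7, a fatty acid elongase, had 924 ± 69.3 and 1001 ± 65.4. Under DCS Elovl1, the elongase of very long saturated chains, had 975 ± 106 in HT and 1137 ± 86.6 in WT, a difference of -0.23 ± 0.07 (limma, unadjusted p = 0.00181, adjusted p = 0.596), with 5 of 6 libraries under the WT DCS mean. Mid1ip1, an activator of acetyl-CoA carboxylase, had 2243 ± 132 and 2449 ± 159. For DCS in WT the smallest p-values were those of Scap, the SREBP escort (3383 ± 290.5 against 3062 ± 213, 5 of 5 libraries above the WT vehicle mean), and Fntb, a farnesyltransferase subunit (1139 ± 64.8 against 1218 ± 62.5). For DCS in HT they were those of Scd3, another desaturase (123 ± 35.1 against 149 ± 21.6), and Vldlr, a lipoprotein receptor (3925 ± 202 against 3739 ± 101).

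**Figure D4:**
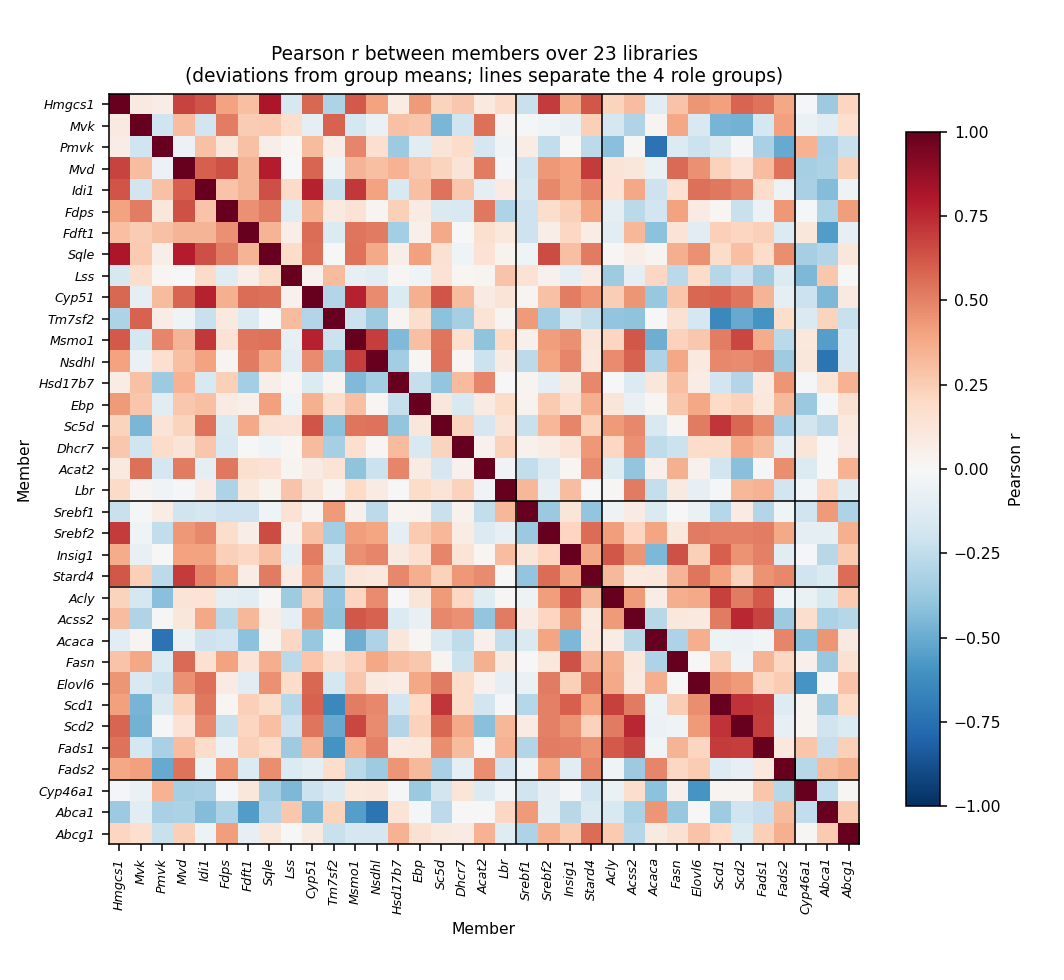
Pearson r between each pair of the 35 genes over the 23 libraries after subtracting each group's mean, ordered by role with lines between the 4 role groups. Off the diagonal, the darkest red cells of the sterol block are pairs among Hmgcs1, Mvd, Idi1, Sqle, Cyp51 and Msmo1. Not all of their pairs are dark (Mvd with Msmo1, r = 0.34), and Msmo1 with Nsdhl (0.69) is dark as well. Abca1 is mostly blue against the sterol block.

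The genes also varied together from library to library within groups. These correlations are over 23 libraries after the group means were removed, share the libraries' scaling and tissue make-up, and are given as a description. Of 595 pairs 384 were positive, with a median r of 0.11, where pairs of all genes tested had a median near 0. The closest pair was Hmgcs1 and Sqle, the entry to the mevalonate steps and the entry to the ring-forming steps, with r = 0.80 (0.76 to 0.85 with each library left out). Mvd and Sqle followed at 0.78, Cyp51 and Msmo1 at 0.77, Idi1 and Cyp51 at 0.77, and Acss2 and Scd2 at 0.75. The promoters shown above are of these genes, apart from Sqle and Scd2. Among them Hmgcs1 alone carried an exact match to TCACNCCAC. All 6 carried CCAAT, as did 22 of the 27 listed genes with a promoter. Srebf2, the regulator, had its highest r with Hmgcs1, at 0.70. Msmo1 and Nsdhl, which act in 1 demethylation step, had r = 0.69. The lowest values were those of Pmvk with Acaca (-0.74) and Nsdhl with Abca1 (-0.73), and Abca1, the exporter, had a median r of -0.22 with the other genes. Pairs within fatty acid synthesis had a median of 0.25, pairs within sterol synthesis 0.15, and pairs of a sterol synthesis with a removal gene -0.05. In all 73 pairs had r above 0.5 and 9 below -0.5. The share of all gene pairs beyond these cuts was not determined, so whether these counts are unusual was not tested.

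The means of libraries numbered 1 to 3 and of those numbered 4 to 6 were then also removed within each group. Among the closest pairs, r fell less between sterol synthesis genes than in pairs with a desaturase. Hmgcs1 with Sqle then had r = 0.79, Mvd with Sqle 0.77, Cyp51 with Msmo1 0.70 and Idi1 with Cyp51 0.60. Acss2 with Scd2 went from 0.75 to 0.31, Scd1 with Scd2 from 0.73 to 0.13 and Scd1 with Fads1 from 0.70 to 0.34. Smaller falls were those of Sc5d with Scd1 (0.72 to 0.49), Mvd with Stard4 (0.70 to 0.55) and Msmo1 with Nsdhl (0.69 to 0.53).

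Several genes differed with replicate number. Scd2 ran from 49816 to 52459 in the 12 libraries numbered 1 to 3 and from 43255 to 49606 in the 11 numbered 4 to 6, with no overlap, as for 0.11% of all genes. The gap was -0.12 on the log2 scale and had the same sign in 4 of 4 groups. Msmo1 had means of 2505 and 2184 (-0.20), Scd1 5466 and 4934 (-0.14), Acss2 1953 and 1803 (-0.11) and Insig1 2686 and 2539.9 (-0.08), each lower at the later numbers in all 4 groups, with overlapping values. In all 12 of 35 genes were lower in all 4 groups (14% of all genes were), Hmgcs1, Cyp51, Nsdhl, Sc5d, Srebf2, Acly and Fads1 among them, and 3 were higher (Mvk, Lss and Tm7sf2; 12.9% of all genes). Beside these values, 9 of 10 myelin markers were lower in all 4 groups, by a median of -0.22 over the list. Microglia markers had a median of -0.25, with 1 of 6 lower in all 4 groups. The medians of the other marker lists ran from -0.04 (endothelial) to 0.05 (oligodendrocyte precursors). What the numbers stand for is not in the labels and was not tested.

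**Figure D5:**
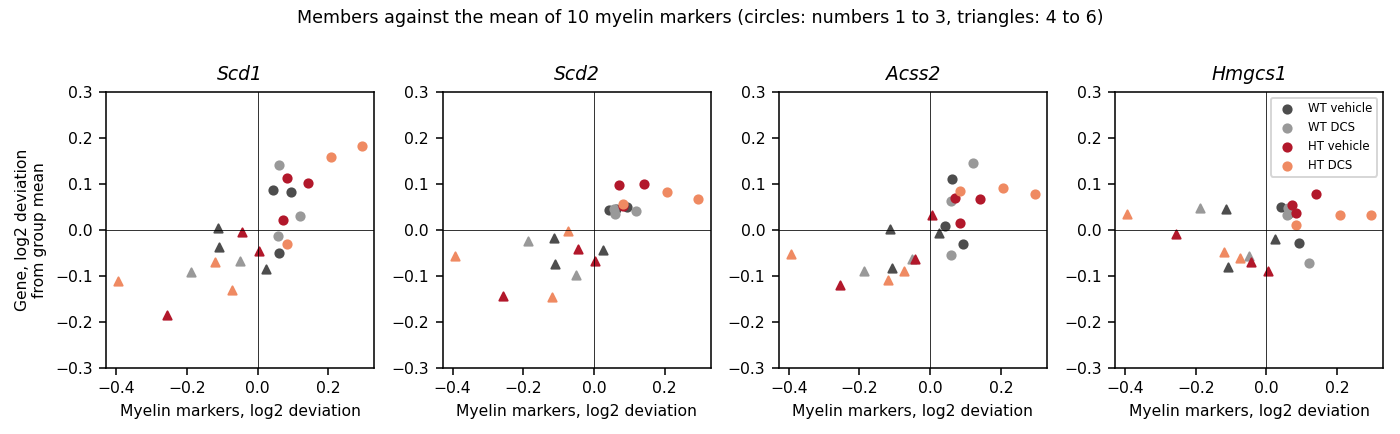
Log2 deviation from the group mean of Scd1, Scd2, Acss2 and Hmgcs1 (vertical) against that of the mean of 10 myelin markers (horizontal), 1 point per library (circles: replicate numbers 1 to 3, triangles: 4 to 6). All 12 circles lie to the right of the 11 triangles, and Scd1, Scd2 and Acss2 follow the markers across that divide.

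Each gene was set against the mean level of 6 lists of cell markers (210 relations, 23 libraries, group means removed, permutation within groups with 100000 resamples, two-sided, Benjamini-Hochberg adjustment over the 210). Of these 3 passed by either coefficient, all with the 10 markers of myelinating oligodendrocytes. Scd1 had r = 0.79 (permutation p = 9e-05, adjusted 0.0189) and rho = 0.80 (permutation p = 0.00011, adjusted 0.0116). Scd2 had r = 0.75 (permutation p = 0.00042, adjusted 0.0294) and rho = 0.85 (permutation p = 2e-05, adjusted 0.0042). Acss2 had r = 0.72 (permutation p = 0.00028, adjusted 0.0294) and rho = 0.80 (permutation p = 0.00017, adjusted 0.0119). Without the 2 libraries farthest from the median marker level, HT DCS replicate 6 and HT vehicle replicate 6, r was 0.77 for Scd1, 0.75 for Scd2 and 0.75 for Acss2.

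These relations did not pass among libraries of like number. Among the 12 libraries numbered 1 to 3, r with the myelin markers was 0.61 for Scd1, 0.29 for Scd2 and 0.14 for Acss2, and among the 11 numbered 4 to 6 it was 0.38, 0.17 and 0.31. Over both sets, with the means of each group and number set removed, r was 0.41 for Scd1 (permutation p = 0.107, adjusted 0.320), 0.18 for Scd2 (permutation p = 0.698, adjusted 0.698) and 0.21 for Acss2 (permutation p = 0.361, adjusted 0.541). The pooled values take in the divide between the number sets. Sterol synthesis genes gave no relation that passed: Hmgcs1 had r = 0.18 with the myelin markers, and Mvk, at -0.54, had the smallest p of them with these markers (permutation p = 0.00183, adjusted 0.064). Acly came nearest among the rest, at 0.69 (permutation p = 0.00122, adjusted 0.0554).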

How the data were processed

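The deposited table covers 18848 genes in 23 libraries. Its values are a signal: read counts that the authors normalised between libraries, with decimals. Salmon 1.1.0, DESeq2 1.26.0, R 3.6.2 and GRCm38 appear in the submitters' processing notes, without saying what each was used for. No source used here gives the annotation release or a low-value filter, and the lowest mean of a gene was 3.581. Among values of at most 5 steps of the low-value spacing, the share within 0.15 of a whole number of steps was 56.73% to 76.87% per library, so whole reads were not recovered and no count test was run. Scaling hides differences in total RNA. All 23 columns matched a sample, 0 pairs of libraries were identical, and 16 identifiers had no symbol.

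Log2(value + 1) was fitted with limma 3.58.1 (R 4.3.3) over all 23 libraries, with 1 coefficient per group and robust, trended empirical Bayes moderation. Tests were two-sided, with Benjamini-Hochberg adjustment at 0.05 over 17256 genes whose mean reached 10. Differences of low genes are understated on this scale. The fit was tested on simulated data. There were 7 contrasts: HT against WT within vehicle and within DCS, DCS against vehicle within WT and within HT, the interaction, and both averages. The members and lists were chosen with earlier results of these data known, so list counts and medians are descriptions. Values per library are given for Srebf1, Srebf2, Insig1, Hmgcs1, Sqle, Fasn, Scd1, Scd2, Cyp46a1 and Abca1 and for the 3 members with the smallest p in each contrast. For the other pathway genes, the 2 with the smallest p in each comparison of 2 groups are given. The estimated depth was 25.57 M to 37.52 M reads per library, and counting error is part of the spread between libraries. The fit without HT DCS replicates 5 and 6 was chosen after seeing the data. Alternatives were other filters, pseudocounts and moderation, quantile normalisation, only the groups compared, a replicate block, the number set as a covariate, array weights and leaving out each library.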

Additional observations from a re-analysis of the deposited data

Results flagged for a closer look

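Of 140 sets of libraries (35 genes in 4 groups), 5 held a library far from the rest of its group by Dixon's test, where chance gives about 1 in 20. Fasn in HT DCS replicate 5 had 10621 normalised reads, and the other HT DCS libraries had 12509.7 to 13162. Acly in WT DCS replicate 4 had 6999 against 7404 to 7471 in the others. Sc5d in HT DCS replicate 3 had 2880.2 against 2569 to 2637. Insig1 in WT vehicle replicate 3 had 2818 against 2572 to 2651. Abcg1 in the same library had 2586 against 1915 to 2159. The 5 sets concerned 5 genes and 4 libraries.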

How the results depend on the processing

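Each of 35 values (7 counts of genes passed, 7 medians over the 35 genes and 21 differences of single genes) was recomputed under 35 alternatives, 23 of which left out 1 library each. In all 35 alternatives the count of the 35 genes passed was 0, and none of these values changed its side of the threshold. The smallest adjusted p was 0.310 (limma, Acly between HT DCS and WT DCS without HT DCS replicate 3). The medians over the 35 genes were small and moved with single libraries: leaving out 1 gave -0.02 to -0.0003 between HT vehicle and WT vehicle, -0.05 to -0.03 between HT DCS and WT DCS, 0.0084 to 0.04 for DCS in WT, -0.03 to 0.0030 for DCS in HT, -0.05 to -0.01 for the interaction, -0.04 to -0.02 for HT against WT averaged over treatments and 0.0034 to 0.01 for DCS averaged over genotypes. For DCS in HT the sign turned without HT vehicle replicate 3, without HT DCS replicate 5, and, at 0.0059, without HT DCS replicates 5 and 6. The replicate numbers gave no consistent pairing of the samples. Same-numbered libraries of WT vehicle and WT DCS had correlations of -0.07 to 0.30 in their deviations, above 0.1 in 3 of 5. In 3 of 5 the library of the same number was also the closest match. For HT vehicle and HT DCS the correlations were -0.04 to 0.08, with the same number closest in 1 of 6. With the replicate number of the titles as a block, the median over the 35 genes between HT DCS and WT DCS was -0.04, and Ebp differed by 0.26 for DCS in WT. Over all genes, HT against WT averaged over treatments had 0 calls as reported, 6 with the block, 4 with the number set as a covariate, 2 after quantile normalisation and 1 with array weights, all lower in HT and none among the 35 (limma). Leaving out 1 library gave at most 1 call over all genes in any contrast. The printed intervals are not adjusted for the number of genes tested. With 5 or 6 libraries a group, some differences whose interval left out 0 still did not pass. Examples were Ebp for DCS in WT and Fads2 between HT vehicle and WT vehicle. Real differences of such sizes are therefore not excluded, and the smallest detectable difference was not determined.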

Other observations

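Outside the myelin markers, the closest relation of a lipid gene to a cell type list was that of Dhcr7, the last reductase of cholesterol synthesis, with the microglia markers. Over 23 libraries with group means removed, r was 0.65 (permutation p = 0.00132, adjusted 0.0554) and rho 0.66 (permutation p = 0.00178, adjusted 0.0934), so it did not pass. Without WT DCS replicate 2 and WT vehicle replicate 2, the libraries farthest from the median, r was 0.56. Summed microglia markers ran from 2803 to 4885 in WT vehicle, 2639 to 5393 in WT DCS, 3091 to 4958 in HT vehicle and 3045 to 5213 in HT DCS. Srebf1 had r = 0.54 with the markers of oligodendrocyte precursors (permutation p = 0.00936, adjusted 0.179; rho 0.52, permutation p = 0.0182, adjusted 0.238) and did not pass.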
